A study of Homo sapiens with 9 samples.

Results

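The replication-dependent histone H4 genes H4C1, H4C2, H4C3, H4C4, H4C5, H4C6, H4C8, H4C9, H4C11 and H4C13 are examined here across every RNA-binding protein (RBP) library of the series. The 10 genes were chosen by name, out of 62700 annotated genes, and a binding peak was counted for a gene when it overlapped the gene by at least 1 nt on the same strand. The peaks came from antibody-barcode eCLIP (ABC), in which UV cross-linked RNA is immunoprecipitated with an antibody that carries a DNA barcode, and the barcode is ligated to the RNA so that several RBPs can be assayed in 1 tube. Of 2478204 peaks in 54 libraries, 436 lay in the 10 H4 genes.

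The 4 singleplex libraries, made with 1 antibody per tube, comprised 2 replicates of the stem-loop binding protein SLBP in K562 cells and 2 replicates of the splicing regulator RBFOX2 in HEK293T cells (HEK293XT in the study's methods), called HEK293 here. The 50 multiplexed (10plex) libraries came from 3 pools of K562 cells and 2 pools of HEK293 cells, each pool holding the RBPs DDX3, EIF3G, FAM120A, IGF2BP2, LIN28B, PRPF8, PUM2, RBFOX2, SF3B4 and ZC3H11A. K562 is an erythroleukaemia line and HEK293T a derivative of the embryonic kidney line HEK293. No treatment or genetic change was named for either, and all pellets were UV cross-linked. All libraries of a pool were made from the same lysate, so the pool and not the library is the independent unit of the 10plex experiments, and nothing in the labels says whether replicates came from separate cultures. SLBP was not part of any pool, so a difference between SLBP and the 10plex RBPs cannot be told apart from a difference between singleplex and 10plex experiments. RBFOX2 and SLBP singleplex libraries also differed in cell line. The cell line field of the HEK293 pools read K562 whereas their source field read HEK293T. Of 8 K562 marker genes (globin genes, GATA1 and others), 2 had peaks in each HEK293 pool and 8 in each K562 pool. The pools were therefore grouped by the source field.

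Histone H4 is a core histone that is wrapped by DNA in the nucleosome. Replication-dependent histone genes are transcribed in S phase, and their mRNAs end in a conserved stem-loop instead of a poly(A) tail. SLBP binds this stem-loop and takes part in the 3′ processing, export, translation and decay of these mRNAs.

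All 10 H4 genes lie on chromosome 6 and are annotated as an mRNA without introns of 387 to 412 nt with a coding sequence of 312 nt. The 10 coding sequences encode the same protein of 103 residues, while over the 45 pairs of genes they shared between 79.17% and 90.06% of their nucleotides, with a median of 83.65%. The stem-loop of 16 nt began 22 nt (H4C11) to 57 nt (H4C3) after the stop codon and ended 0 to 9 nt before the annotated end of the mRNA. The 10 stem-loops are shown because they are the sites on which the SLBP result turns. Capitals mark the 16-nt stem-loop, lower case marks 5 nt on either side, and each sequence is given 5′ to 3′ in the sense of the mRNA, from GRCh38 with the coordinates and strand of the stem-loop.
H4C1, chr6:26022030-26022045, plus strand: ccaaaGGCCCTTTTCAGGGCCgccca
H4C2, chr6:26026901-26026916, minus strand: ccaatGGCCCTTTTCAGGGCCgccca
H4C3, chr6:26104317-26104332, plus strand: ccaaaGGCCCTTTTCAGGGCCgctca
H4C4, chr6:26188715-26188730, minus strand: ccaacGGCCCTTTTCAGGGCCaccta
H4C5, chr6:26205001-26205016, plus strand: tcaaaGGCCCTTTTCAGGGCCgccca
H4C6, chr6:26240778-26240793, plus strand: taaaaGGCCCTTTTCAGGGCCacctc
H4C8, chr6:26285131-26285146, minus strand: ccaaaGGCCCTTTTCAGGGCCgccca
H4C9, chr6:27139654-27139669, plus strand: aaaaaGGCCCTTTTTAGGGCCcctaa
H4C11, chr6:27824459-27824474, plus strand: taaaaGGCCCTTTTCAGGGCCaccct
H4C13, chr6:27873153-27873168, minus strand: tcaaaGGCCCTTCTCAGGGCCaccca

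The same 16 nt were present in 8 of the 10 genes. Counting from 1 at the 5′ end of the stem-loop, H4C9 differed from them by C10T and H4C13 by T8C. Both differences lie in the stretch between the complementary arms GGCCCT and AGGGCC, which all 10 genes have.

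Because the 10 mRNAs are so alike, the mapping of short reads to them was checked on the genome sequence. Every 32-nt window that holds the whole stem-loop occurred at 1 place in the genome for each of the 10 genes. Over the whole mRNA, 100% of such windows were unique for H4C3, H4C6 and H4C8, 98.0% for H4C13, 93.0% for H4C2 and 84.7% for H4C9. H4C11 was the exception, with 7.54% of windows unique and none of the 281 windows in its coding sequence. Reads that map to several places were discarded by the authors, so peaks inside the coding sequence of H4C11 could not be scored.

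Peaks were found in 8 of the 10 H4 genes. H4C5 had a peak in 46 of the 54 libraries, H4C8 in 39, H4C3 in 37, H4C4 in 33, H4C2 in 32 and H4C1 in 27. H4C11 had a peak in 12 libraries and H4C9 in 6. H4C6, whose stem-loop is the common one, and H4C13 had no peak in any library. The lists hold only the peaks that the peak caller reported, so the absence of a peak sets no upper limit on binding. RNA levels of the 10 genes were not analysed here, so a gene that was bound less and a gene that was transcribed less cannot be told apart.

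The summed reads under all peaks, which stand here for the depth of a library, were 84646 and 19484 in the SLBP libraries, 2174920 to 4443490 in the RBFOX2 singleplex libraries, 13666 to 2189010 in the K562 pools and 21948 to 2598610 in the HEK293 pools. The IGF2BP2 library of K562 replicate 1 stood apart from the other 2 IGF2BP2 libraries of K562 cells in the H4 genes, and values that rest on it are given with and without it. Intervals given below cover counting error only, and peaks that touch can share reads, so a read can be counted more than once.

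SLBP placed a far larger share of its reads on the H4 genes than any other RBP, and almost all of them over or next to the stem-loop. In the SLBP libraries, 8970 of 84646 peak reads (10.6%, 95% Wilson interval 10.4 to 10.8) and 2566 of 19484 peak reads (13.2%, interval 12.7 to 13.6) lay in the 10 H4 genes, with a mean of 11.9% ± 1.82 (SD, n = 2). In the RBFOX2 singleplex libraries the shares were 0.00684% and 0.0147%, a mean of 0.0108% ± 0.00557 (SD, n = 2). Both SLBP libraries thus lay above both RBFOX2 libraries, but a two-sided exact permutation test of 2 libraries against 2 could give no p below 0.333, which is the p it gave. Among the 10plex RBPs in K562 cells, the means ranged from 0 for PUM2 to 0.0880% for IGF2BP2, with a mean over the 10 RBPs of 0.0248%. Without the IGF2BP2 library of K562 replicate 1, the highest mean was 0.0540% for DDX3 and the mean over the 10 RBPs 0.0184%. SLBP ranked first of 11 RBPs, for which the one-sided exact permutation p was 0.0909, the smallest that 11 labels allow. When every run of touching peaks was counted once, the SLBP mean was 8.12%.

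**Figure D1:**
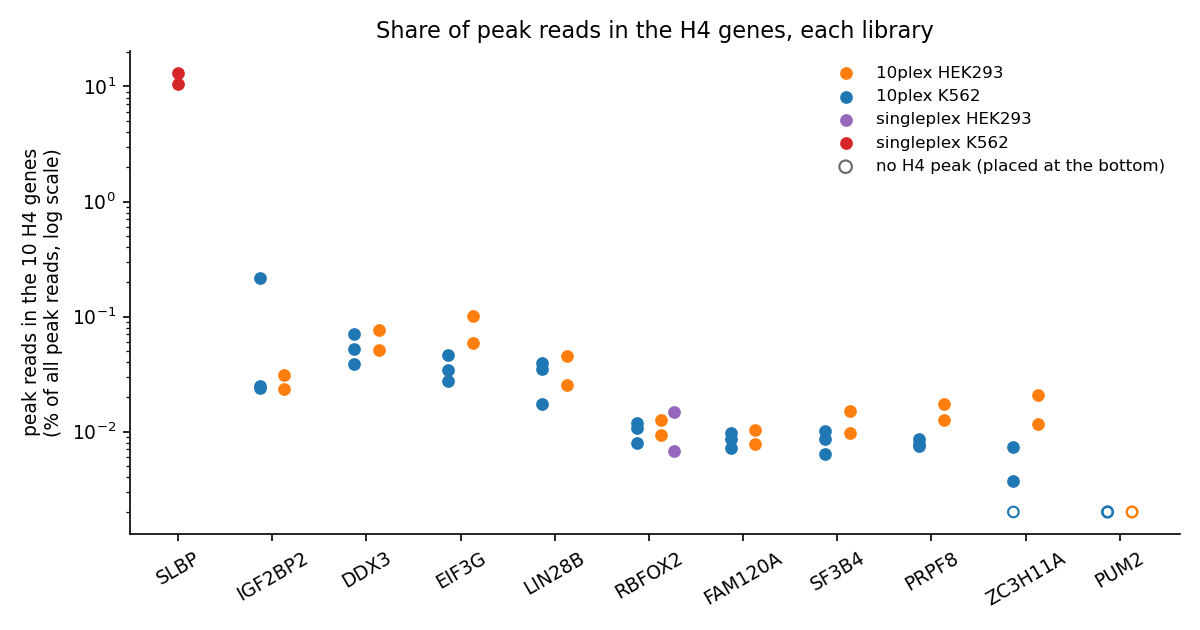
Percent of summed peak reads in the 10 H4 genes on a logarithmic axis, 1 point per library, for SLBP and RBFOX2 singleplex libraries and for each RBP of the K562 and HEK293 pools. The SLBP libraries sit at 10.6% and 13.2%, the IGF2BP2 library of K562 replicate 1 at 0.215% above its other replicates at 0.0240% and 0.0249%, and the open symbols for PUM2 and ZC3H11A mark libraries with no H4 peak, which a logarithmic axis cannot place.

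At the level of single genes, SLBP had a peak over the stem-loop of 8 H4 genes in both replicates: H4C1, H4C2, H4C3, H4C4, H4C5, H4C8, H4C9 and H4C11. RBFOX2 singleplex libraries had such a peak in 3 and 4 genes (two-sided exact permutation p = 0.333, the smallest possible). The 10plex RBPs in K562 cells had a stem-loop peak in 0.933 genes on average and in 4 at most, for IGF2BP2 (one-sided exact permutation p = 0.0909, the smallest possible), or in 0.783 on average and 2.5 at most without the IGF2BP2 library of K562 replicate 1 (exact permutation p = 0.0909). A peak was called enriched when P was below 0.001 and the fold over background above 8, with the authors' external background as reference. The study's methods name RNA sequencing and the size-matched input of eCLIP as such backgrounds. Which of them lay behind each library was not established here. RBFOX2 singleplex libraries had an enriched peak in 3 and 6 H4 genes, where 10.0% of all their peaks were enriched. By these limits the same 8 genes were enriched in both SLBP replicates, and they were so too at P below 1e-05 and a fold above 16. This call separated little in these libraries, since 37.8% of all peaks were enriched in SLBP replicate 1 and 99.9% in replicate 2, and 78.5% of the 642 genes with a peak in both replicates were enriched in both. The external background was solved as 1 or 2 reads at each SLBP peak in the H4 genes. Background reads were taken as at least 1, so a value of 1 can also stand for no read. The folds, 47.3 to 11529, therefore follow the SLBP reads and do not correct for how much of each mRNA was present.

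The 8 bound genes differed widely in their SLBP reads. Because touching peaks share reads, each gene is described by the reads of its highest peak. H4C8 had 763 reads in replicate 1 and 288 in replicate 2, H4C5 had 717 and 210, H4C3 had 914 and 142, and H4C4 had 621 and 176. These 4 genes were the highest of the H4 genes in both replicates, in a different order in each. H4C11 followed with 347 and 107 reads, H4C1 with 221 and 60 and H4C2 with 62 and 27. H4C9, the bound gene with the C10T stem-loop, was the lowest with 14 and 13 reads.

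Scaled to 10000 peak reads of the library, the means were 119 ± 40.8 (SD, n = 2 here and for the following genes) for H4C8, 96.2 ± 16.3 for H4C5, 90.4 ± 24.8 for H4C3 and 81.8 ± 12 for H4C4. The ranges of neighbours among these 4 genes overlapped between replicates, so their order is not resolved. H4C11 at 48.0 ± 9.84, H4C1 at 28.5 ± 3.31, H4C2 at 10.6 ± 4.62 and H4C9 at 4.16 ± 3.55 each lay below the gene before it in both replicates. Among all genes with an SLBP peak, ordered by their highest peak, H4C3 ranked 7, H4C8 10 and H4C5 11 of 2547 in replicate 1, and H4C8 ranked 4 and H4C5 9 of 1122 in replicate 2. H4C9 ranked 314 and 129. The H4 genes thus spanned from near the top of the SLBP list to well below it.

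**Figure D2:**
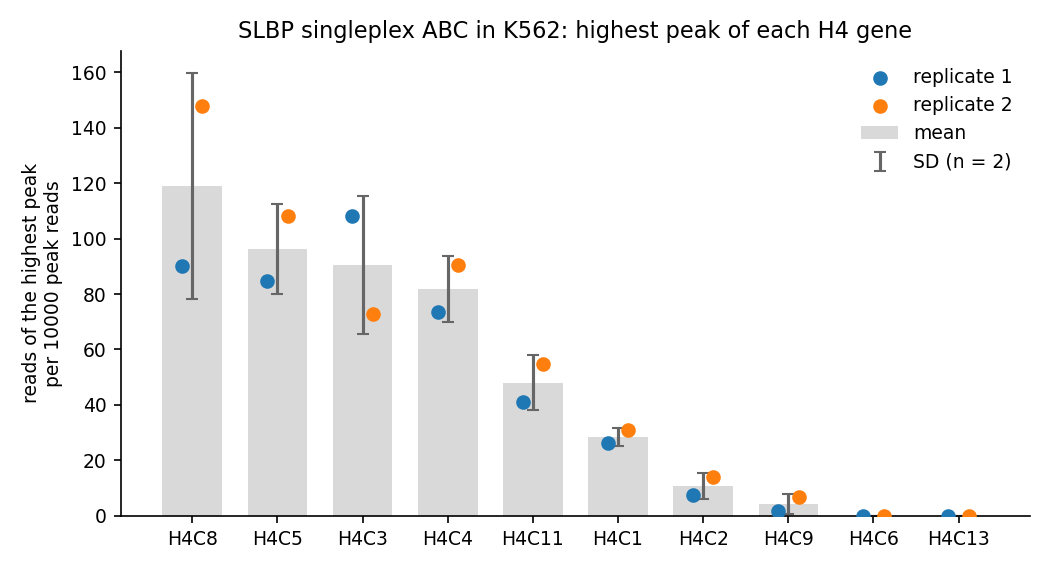
Reads of the highest SLBP peak in each of the 10 H4 genes per 10000 peak reads of the library, with both K562 replicates as points, their mean as a bar and the SD (n = 2) as an error bar. H4C8, H4C5, H4C3 and H4C4 have overlapping ranges between 72.9 and 148, H4C11, H4C1, H4C2 and H4C9 follow without overlap, and H4C6 and H4C13 have no peak.

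The bound interval around the stem-loop was short and ended close to the end of the mRNA. For each gene, the peaks that overlapped the stem-loop or lay within 20 nt of it were joined into a run. A run reached from the first to the last base of these peaks. Peaks farther away were left out, which limits the length of a run. The runs were 41 to 68 nt long in replicate 1 and 41 to 48 nt in replicate 2, with a median of 43.5 nt in each. They began 14 to 26 nt before the 5′ end of the stem-loop in replicate 1 and 18 to 25 nt before it in replicate 2. They ended a median of 4.5 and 4.0 nt past its 3′ end, with a range of 3 to 26 nt in replicate 1 and 3 to 8 nt in replicate 2. In H4C4 the run covered mRNA positions 358 to 401 in both replicates, around a stem-loop at 383 to 398, and in H4C1 it covered 360 to 400 in both, around a stem-loop at 382 to 397. The bound interval was therefore the same to the nucleotide in replicates of these genes, although in H4C4 it was listed as 1 peak of 621 reads in replicate 1 and as 2 peaks of 176 and 175 reads in replicate 2.

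The runs were built only from peaks within 20 nt of the stem-loop. They began at similar distances before it in the genes with the longest and the shortest stretch after the stop codon. In H4C3, where 57 nt separate the stop codon from the stem-loop, the runs began 23 and 24 nt before the stem-loop. In H4C11, where 22 nt separate them, they began 24 and 25 nt before it, inside the stop codon. No 32-nt window inside the coding sequence of H4C11 was unique, which can limit how far upstream its runs reach. In H4C3 the run of replicate 1 held 3 of the 4 SLBP peaks of the gene, so its start is partly set by the 20-nt limit. Over all enriched peaks of both replicates the median distance of the peak centre from the stem-loop centre was −11 nt, that is, towards the coding sequence. Weighted by reads, the mean was −7.55 nt.

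**Figure D3:**
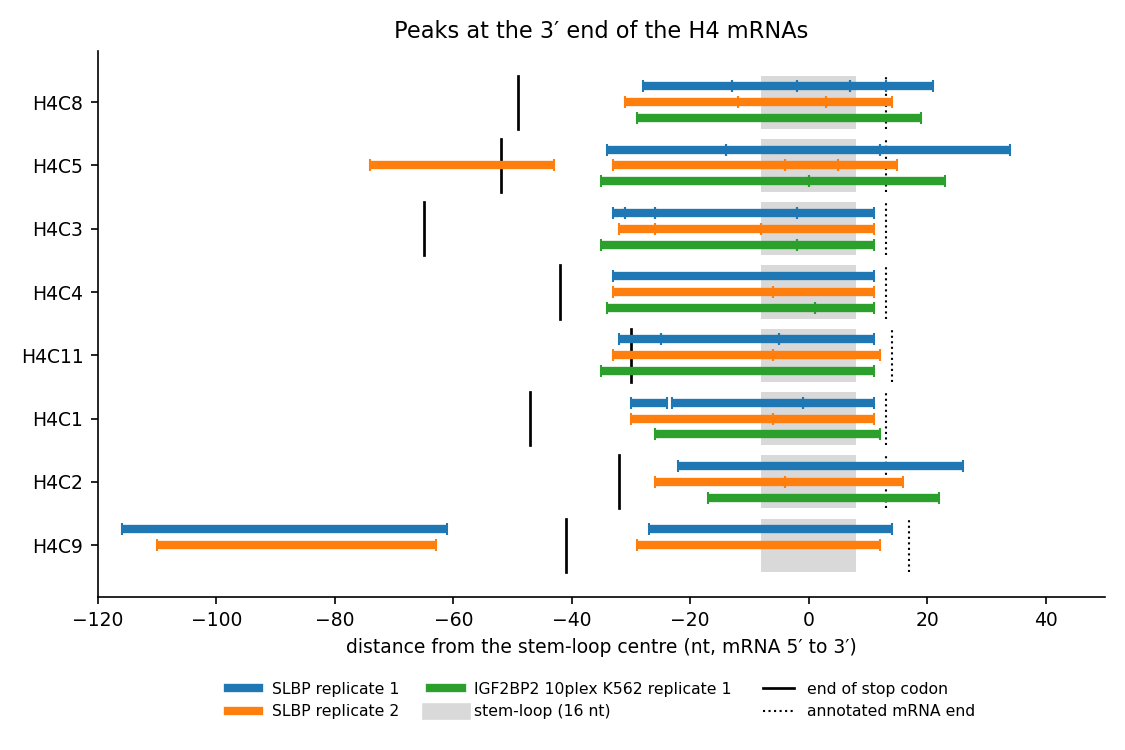
Peaks at the 3′ end of the 8 bound H4 mRNAs, drawn as bars against the distance in nt from the stem-loop centre, for both SLBP replicates and the IGF2BP2 library of K562 replicate 1, with the stem-loop shaded, a solid line at the end of the stop codon and a dotted line at the annotated mRNA end. The SLBP runs over the stem-loop begin 14 to 26 nt before it and end 3 to 26 nt past it, and the IGF2BP2 peaks lie in the same stretch in 7 genes.

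Some SLBP reads extended past the annotated mRNA end. In replicate 1 the run of H4C5 ended 21 nt past it, with a peak of 123 reads at positions 412 to 433 of a 412-nt mRNA, against 717 reads in its highest peak. The run of H4C2 ended 13 nt past the end and that of H4C8 8 nt past it, where a peak of 47 reads stood beside 763. In replicate 2 the same 3 runs ended 2, 3 and 1 nt past the mRNA end. Runs of H4C1, H4C3, H4C4, H4C9 and H4C11 ended 2 to 5 nt before the annotated end in both replicates. Reads past the end were thus seen in the same 3 genes in both replicates, and in replicate 1 they reached farther.

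SLBP peaks inside the coding sequence were rare. H4C9 had peaks of 5 and 10 reads there in replicate 1 and of 6 reads in replicate 2, beside 14 and 13 reads over its stem-loop. H4C5 had a peak of 20 reads in replicate 2 that covered the stop codon, beside 210 over its stem-loop. By peak centre, 99.8% of the H4 reads of replicate 1 and 99% of those of replicate 2 lay after the stop codon, a mean of 99.4%. The 10plex RBPs in K562 cells that had an H4 peak averaged 20.2%, with a highest RBP mean of 59.4% for IGF2BP2 (one-sided exact permutation p = 0.1, the smallest that 10 labels allow). Without the IGF2BP2 library of K562 replicate 1, in which all H4 reads lay after the stop codon, the average was 17.9% and the highest RBP mean 39.1% (exact permutation p = 0.1). For most RBPs the H4 reads were thus mainly in the coding sequence, the reverse of SLBP.

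**Figure D4:**
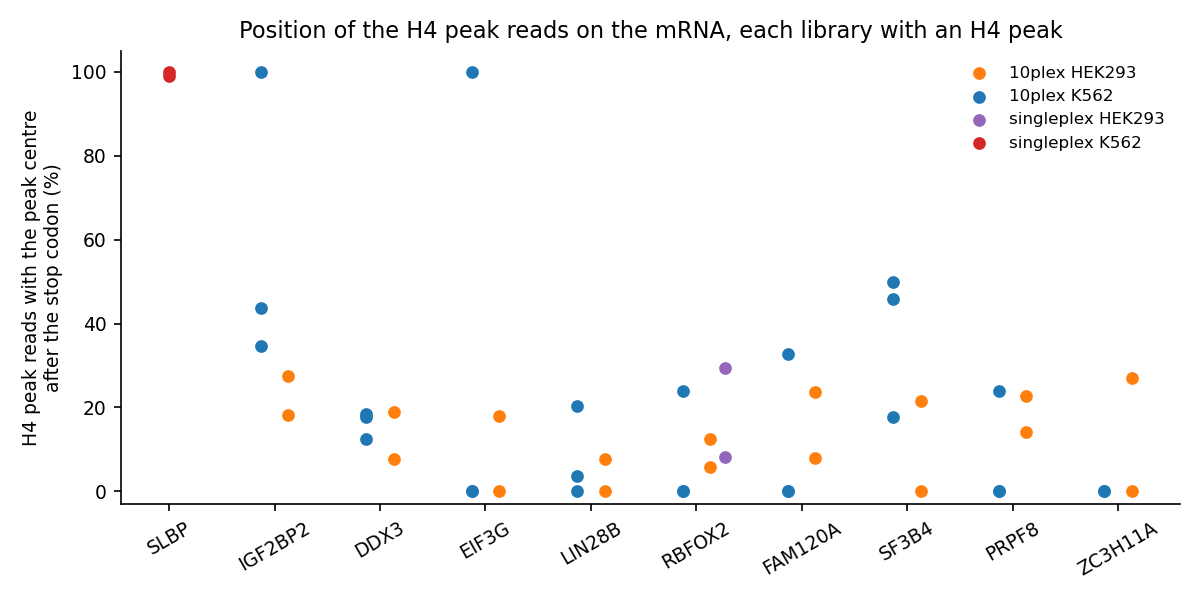
Percent of H4 peak reads that lie after the stop codon by peak centre, 1 point per library, for each RBP with an H4 peak, on a linear axis from 0 to 100. Both SLBP libraries are at 99% or more, the IGF2BP2 and EIF3G libraries of K562 replicate 1 are at 100% on 406 and 9 reads, and the other libraries lie at 50.0% or below.

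The IGF2BP2 library of K562 replicate 1 had its H4 peaks where SLBP had them. IGF2BP2 is an mRNA-binding protein that is known for binding in coding and 3′ untranslated sequence. In this library, 406 of its peak reads (0.215%) lay in the H4 genes, against 0.0240% and 0.0249% in replicates 2 and 3 of K562 cells and 0.0313% and 0.0235% in HEK293 cells. All of its 10 H4 peaks lay over the stem-loops of 7 genes, which were the genes bound by SLBP except H4C9. The highest peaks held 60 reads in H4C3, 59 in H4C5, 47 in H4C4, 39 in H4C8, 22 in H4C11, 14 in H4C1 and 8 in H4C2.

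The order of genes in this library, with H4C3, H4C5, H4C4 and H4C8 above H4C11, H4C1 and H4C2, is that of SLBP apart from the order within the first 4. Its H4C4 run, at mRNA positions 357 to 401, began 1 nt before that of SLBP and ended at the same base. All 10 peaks were enriched over the complement control, the summed reads of the other 9 RBPs of the pool, by 24.6-fold to 295-fold, while 19.1% of all peaks of the library were enriched. Across all 69 annotated histone stem-loops, 37 had a peak in this library, 5 in replicate 2 and 8 in replicate 3, against 52 and 47 in the SLBP libraries. The other 9 libraries of the same pool had a peak on 0 to 7 of them. What set this library apart was not tested.

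Elsewhere, IGF2BP2 had a stem-loop peak in H4C8 in all 5 libraries. It held 39, 12 and 17 reads in K562 replicates 1, 2 and 3, at 24.6, 7.29 and 3.31 times the complement control, and 9 and 13 reads in the HEK293 pools, at 2.64 and 3.42 times. Outside K562 replicate 1 no IGF2BP2 stem-loop peak in an H4 gene passed the fold limit of 8. The IGF2BP2 reads of the H4 genes were spread over coding sequence and stem-loop in these 4 libraries, with 43.8% and 34.5% after the stop codon in K562 replicates 2 and 3 and 18.2% and 27.4% in the HEK293 pools.

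Differences among the 10plex RBPs were small beside that of SLBP. In K562 cells the mean share of reads in the H4 genes was 0.0880% ± 0.110 (SD, n = 3 here and for the following RBPs) for IGF2BP2, 0.0540% ± 0.0163 for DDX3, 0.0360% ± 0.00922 for EIF3G and 0.0307% ± 0.0117 for LIN28B. Without its replicate 1 library, the IGF2BP2 mean was 0.0245%. DDX3 is an RNA helicase and EIF3G a subunit of the initiation factor eIF3, both acting in translation initiation. The other RBPs lay at or below 0.0102%, among them the splicing factors RBFOX2, SF3B4 and PRPF8, and PUM2 had no H4 peak in any library of either cell line. The PUM2 libraries had the fewest peak reads of every pool, 13666 to 18625 in K562 cells, so its share of 0 is limited by depth. Each RBP was tested against the other 9 by a one-sided exact permutation test with labels exchanged within pools, and none of the 10 passed after Benjamini-Hochberg adjustment. IGF2BP2 had p = 0.035 (exact permutation, adjusted 0.35) and DDX3 p = 0.101 (adjusted 0.485). At an unadjusted p below 0.05, 1 RBP passed. Without the IGF2BP2 library of K562 replicate 1, DDX3 was higher than the other RBPs with an exact permutation p of 0.00111 and an adjusted p of 0.0111, so this call depended on that library. When peaks were counted in place of reads, DDX3 (adjusted exact permutation p = 0.02) and EIF3G (adjusted 0.05) passed.

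In the HEK293 pools the highest means were those of EIF3G at 0.0802% ± 0.0297 (SD, n = 2 here and for the following RBPs), DDX3 at 0.0637% ± 0.0179, LIN28B at 0.0353% ± 0.0140 and IGF2BP2 at 0.0274% ± 0.00554. The other RBPs lay between 0 for PUM2 and 0.0161% for ZC3H11A. The same 4 RBPs therefore headed both cell lines, in another order. Averaged over the 10 RBPs of each pool, the share in the H4 genes was 0.0270% in HEK293 cells and 0.0248% in K562 cells, a difference of 0.00227 percentage points that lay within the spread of the pools (two-sided exact permutation p = 0.6, with 0.1 the smallest possible). Without the IGF2BP2 library of K562 replicate 1, the difference was 0.00900 percentage points (exact permutation p = 0.1). That pool was then averaged without IGF2BP2 while the other pools kept it, so the averages no longer covered the same RBPs.

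Peaks enriched over the complement control, the background used for 10plex libraries in the study, were counted next. In K562 cells, the mean number of H4 genes with an enriched peak per replicate was 2.67 for IGF2BP2, 1.67 for LIN28B, 1.00 for DDX3, 0.667 for EIF3G, 0.333 each for FAM120A and SF3B4 and 0 for PRPF8, PUM2, RBFOX2 and ZC3H11A. Without its replicate 1 library, the IGF2BP2 value was 0.333. The FAM120A and SF3B4 calls and 0.333 of the IGF2BP2 value came from peaks past the H4C8 mRNA: counting peaks on the mRNAs alone, to 50 nt past their ends, FAM120A and SF3B4 were at 0 and IGF2BP2 at 2.33. Over all genes, 20.4% of the peaks of the K562 pools were enriched, with 37.5% for LIN28B, 21.1% for DDX3, 31.7% for EIF3G, 30.8% for SF3B4, 18.6% for FAM120A, 22.5% for PRPF8, 30.1% for PUM2, 11.2% for RBFOX2, 22.4% for ZC3H11A and 10.5% for IGF2BP2 in its replicates 2 and 3. By peaks, 5 of 18 LIN28B, 4 of 31 DDX3 and 2 of 7 EIF3G peaks on the H4 mRNAs were enriched in K562 cells, so none of these RBPs had a higher share of enriched peaks in the H4 genes than over all genes. In the HEK293 pools 3 of 16 LIN28B peaks and 1 of 20 EIF3G peaks were enriched, where 27.6% and 20.6% of all peaks were. The other 8 RBPs had no enriched H4 peak in the HEK293 pools, where 13.9% of all peaks and between 5.12% (IGF2BP2) and 24.4% (SF3B4) of those of these RBPs were enriched, with 5.94% for RBFOX2. Over the external background, 27.7 H4 genes per K562 replicate, summed over the 10 RBPs, had an enriched peak in place of 6.67, and 49.9% of all peaks were enriched.

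LIN28B, which is known for binding GGAG in the precursors of let-7 microRNAs, had a peak at the same place in H4C2 in all 5 pools. The peaks held 4, 14 and 15 reads in K562 replicates 1, 2 and 3 and 19 and 9 reads in the HEK293 pools, and were enriched 21.7, 10.6, 12.7, 22.0 and 11.4 times over the complement control. H4C2 with LIN28B was the only pair of H4 gene and 10plex RBP enriched in every replicate of K562 cells. All 5 covered coding positions 154 to 174 of H4C2, counted from the A of the start codon. A LIN28B peak overlapped the same positions in H4C3 in 4 libraries, 2 of them enriched. These were 11.9-fold in K562 replicate 3, for a peak of only 2 nt and 6 reads, and 10.6-fold in HEK293 replicate 1. In H4C1 a peak did so in 1 library, enriched 11.6-fold in K562 replicate 2. In H4C5 it was a peak of 236 nt in 1 library, not enriched. The place was picked after its values were seen, so it was not tested.

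The 30 coding nucleotides 150 to 179 are shown for these genes and for H4C4 and H4C8, which had no LIN28B peak there, with GGAG in capitals. The sequences are from GRCh38, 5′ to 3′ in the sense of the mRNA.
H4C2, chr6:26027074-26027103, minus strand: gatttatgaGGAGactcgtggcgttctcaa
H4C3, chr6:26104097-26104126, plus strand: tatctatgaGGAGactcgaggtgtgcttaa
H4C1, chr6:26021828-26021857, plus strand: gatctacgaGGAGactcgcggggtgctcaa
H4C5, chr6:26204794-26204823, plus strand: catctacgaGGAGactcgcggggttctgaa
H4C4, chr6:26188898-26188927, minus strand: catttatgaggaaactcgcGGAGtgctgaa
H4C8, chr6:26285321-26285350, minus strand: tatctatgaGGAGactcgtggtgttctgaa

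GGAG, searched on the mRNA strand alone, was present in this window in all 10 H4 genes, and in 29.6% of all windows of 30 nt in their coding sequences. These letters thus stood both in genes with a LIN28B peak there and in genes without one. Of the latter, H4C6 and H4C13 had no peak in any library, and coding peaks of H4C11 could not be scored. The 10 windows encode the same stretch of 1 protein, so they are not independent cases. In H4C4 the letters stood farther towards the 3′ end of the window. Whether GGAG bears on the LIN28B peaks was not tested.

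**Figure D5:**
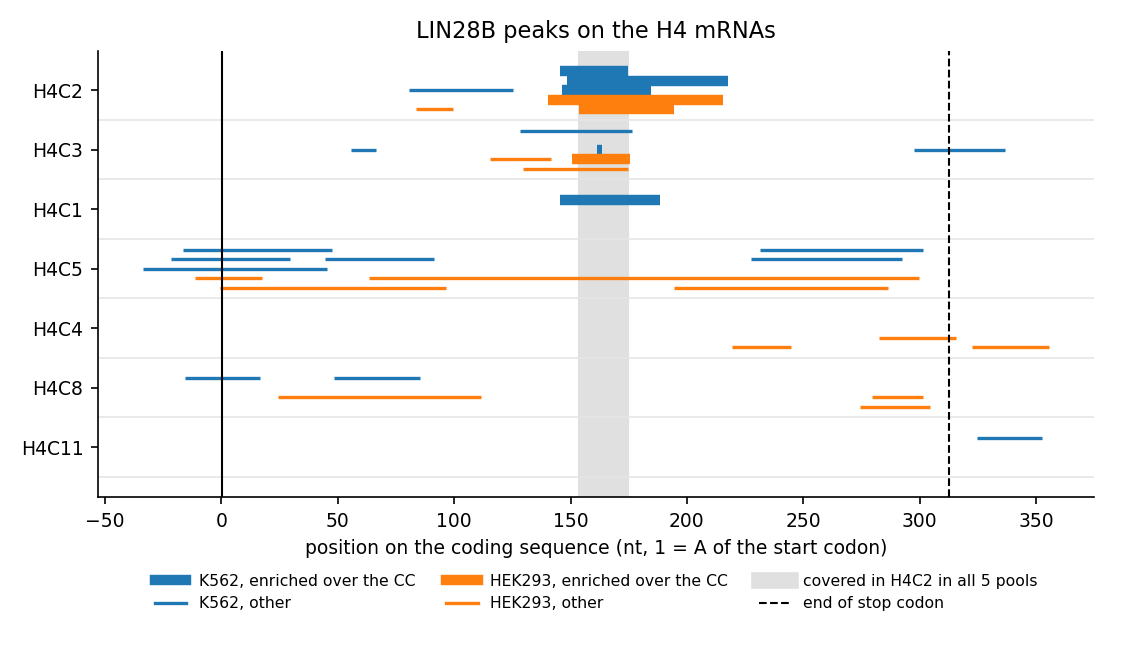
LIN28B peaks along 7 H4 mRNAs, as lines from first to last base in nt counted from the A of the start codon, with a row per pool, coloured by cell line and thick where enriched over the complement control (CC). The shaded band marks coding positions 154 to 174 and the dashed line the end of the stop codon. The peaks of H4C2 cover the band in all 5 pools and are enriched in each, and those of H4C3 overlap it in 4.

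DDX3 and EIF3G peaks lay along the coding sequence of the H4 genes. By peak centre, 22 of 31 DDX3 peaks in K562 cells and 25 of 31 in HEK293 cells were in the coding sequence, and 6 and 4 covered the start codon. DDX3 had a stem-loop peak in H4C8 in all 3 K562 pools, with 6, 4 and 7 reads at 2.5, 3.56 and 2.8 times the complement control, and in both HEK293 pools, with 5 and 8 reads at 5.89 and 3.71 times. None of these passed the fold limit. Its enriched peaks were all in H4C4 and H4C5 of K562 cells, among them a peak of 10 reads over the start codon of H4C4 in replicate 2, enriched 11.2-fold.

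EIF3G had few reads in the H4 genes of K562 cells, 9, 16 and 21 in replicates 1, 2 and 3, and 79 and 84 in the HEK293 pools. A peak of 14 reads over the start codon of H4C5 was enriched 8.84-fold in K562 replicate 3, and a peak of 6 reads over the start codon of H4C4 was enriched 8.26-fold in HEK293 replicate 2. Start codon peaks made up 2 of 7 EIF3G peaks in K562 cells and 5 of 20 in HEK293 cells. Other RBPs had such peaks too. They were 4 of 18 for LIN28B in K562 cells, 5 of 26 for RBFOX2 singleplex and 2 of 25 for IGF2BP2 in HEK293 cells. Differences among the RBPs in this were not tested.

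H4C8 had peaks that the mRNA annotation does not cover. Its annotated gene reaches beyond the 409-nt mRNA through longer transcripts, and 29 peaks of 3 to 18 reads lay there, all in K562 cells, of which 16 were FAM120A peaks and 6 IGF2BP2 peaks. Of the 29, 15 lay in exons of the longer transcripts. These peaks add to the H4C8 counts of the 10plex RBPs and not to those of SLBP.

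Among the histone classes, H4 genes took the largest share of SLBP reads when the reads of all peaks were summed. Of the annotated replication-dependent genes, SLBP had an enriched peak in both replicates in 4 of 6 H1, 14 of 17 H2A, 14 of 18 H2B, 7 of 13 H3 and 9 of 15 H4 genes, the ninth H4 gene being H4C12 with 204 and 78 reads in its highest peak. The H4 share of SLBP reads was the largest in both replicates, 11.1% and 14%, against 7% and 7.78% for H2B, 5.99% and 5.90% for H2A, 5.98% and 5.24% for H1 and 3.21% and 7.77% for H3. The order of the classes below H4 was not the same in the replicates. A list of 14 genes for the making or processing of histone mRNA held SLBP itself, LSM10, LSM11, NPAT, the U7 RNA gene RNU7-1 and others. None of them had an enriched SLBP peak in both replicates. Only 504 of the 62700 annotated genes did, so a count of 0 in so short a list sets these genes apart from no others.

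The genes whose reads over the 54 libraries were most like the summed H4 reads were histone genes too. Pearson's r of the log10 share of reads was 0.955 for H2AC13, 0.951 for H2BC4, 0.938 for H2BC21, 0.938 for H2BC12 and 0.937 for H2BC11, the highest of 15991 genes. These values describe libraries that share pools and cell lines and rest in part on the SLBP libraries. Over the 52 libraries without SLBP, r was 0.805, 0.785, 0.721, 0.791 and 0.788 for the same 5 genes.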

How the data were processed

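ABC libraries were trimmed with cutadapt 2.8 and aligned with STAR 2.7.6 to GRCh38 by the authors after repetitive sequence and reads mapping to several places were removed, and PCR duplicates were collapsed by molecular identifier. CLIPper peaks were deposited with a p-value per peak and a display score that was not used here as a measurement. Merged peaks were deposited with the −log10 of P, capped at 400, and the log2 fold over an external background (RNA sequencing or size-matched input in the study's methods). The K562 pools did not share a single external background across their RBPs. In K562 replicate 1 the solved background total was 12.7 times the library total for EIF3G and 19.0 times for DDX3. DDX3 nevertheless held the larger share of the pool's reads, 0.0506 against 0.0186 for EIF3G. For the 10plex libraries the authors also deposited a chi-squared statistic (K562 replicates 1 and 2, HEK293) or −log10 P and log2 fold (K562 replicate 3) over the complement control. The deposited peaks have no column of read counts. Reads per peak were solved from log2 fold and P: whole reads (within 2%) came out for 84.7 to 100% of peaks in 49 libraries, and for 4.49 to 57.3% in 5 (RBFOX2 singleplex, RBFOX2 of HEK293 pools, FAM120A of K562 replicate 2), whose values are less certain. In 22 libraries whose peak names also hold reads, the solved and named values were equal for 94.4 to 99.6% of peaks. Where no whole reads came out in these libraries, the named reads were used instead. This held for 95.5% and 81.3% of peaks in RBFOX2 singleplex replicates 1 and 2, whose values thus rest mostly on named reads.

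Genes, coding sequences and stem-loops were taken from GENCODE release 44 (the authors used 35). Stem-loops were found by sequence, with up to 1 mismatch. Reads of a gene were summed over merged peaks that overlapped it by 1 nt. Exact permutation tests were run over libraries, RBPs or pools with SciPy 1.17.1 in Python 3.11.15, on functions tested on simulated data. Genes named were the 10 H4 genes, other H4 genes by count, a list of 14 genes for making or processing histone mRNA and the 5 genes most like the H4 genes. Likeness was Pearson's r of the log10 of reads per 10000 with a pseudocount of 1, over genes with peaks in at least 5 libraries. A list of HEK293 marker genes is not reported here. The members and lists were chosen with earlier results of these data known. Alternatives covered the peaks counted, touching peaks, the limits, the background, the denominator and each replicate.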

Additional observations from a re-analysis of the deposited data

How the results depend on the processing

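The SLBP share of reads exceeded that of RBFOX2 by 10.6 to 13.2 percentage points, and that of the 10plex RBPs by 10.6 to 13.2, when single replicates were left out. The gene counts over the stem-loop exceeded RBFOX2 by 4 to 5 and the 10plex RBPs by 6.95 to 7.20, and the share after the stop codon by 73.7 to 84.8 percentage points. With the replicate block, the exact permutation p of SLBP against RBFOX2 was 0.5 for both measures, the smallest that 2 pairs allow, with differences of 11.87 percentage points and 4.5 genes. Replicate numbers pair no cultures in the labels of these experiments. Without the replicate block, the number of 10plex RBPs above the other 9 stayed 0, as it did when each replicate was left out. It was 2 with peaks in place of reads and 1 without the IGF2BP2 library of K562 replicate 1, an alternative chosen after seeing the data. For LIN28B the difference from the other RBPs turned to −0.000818 percentage points without replicate 3 and rose to 0.0188 without replicate 1.

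The difference of HEK293 from K562 pools turned to −0.00622 with peaks in place of reads, to −0.000939 without mitochondrial, snoRNA and scaRNA peaks and to −0.0032 without HEK293 replicate 1, and ranged from −0.0032 to 0.00775 over left-out replicates, so its direction is not settled. Without the IGF2BP2 library, which took IGF2BP2 out of K562 replicate 1 alone, it was 0.00900. The summed number of enriched H4 genes per K562 replicate over the 10 RBPs was 6.67. It was 2.67 at P below 1e-05 and a fold above 16, 11.7 at any fold above 1, 27.7 over the external background, 1 where every replicate was required, 4.33 without the IGF2BP2 library, 5.67 with peaks on the mRNAs alone (also chosen after seeing the data) and 6 to 7.5 with a replicate left out. The median distance of SLBP peaks from the stem-loop centre of −11 nt was −7.55 nt as a weighted mean and −11.75 nt in replicate 2 alone. The causes of these changes were not tested. The H4 peaks held at least 3 reads, and the median H4 peak of a 10plex RBP held 4 to 9 reads in K562 cells.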
